A study of Mus musculus with 13 samples.

Results

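The 10 genes described here encode the proteins that make up telomerase or bind telomeric DNA: the telomerase components Tert and Dkc1, the shelterin subunits Terf1, Terf2, Terf2ip, Pot1a, Pot1b, Tinf2 and Acd, and Ctc1 of the CST complex. They were taken by symbol from a table of 24079 genes, and all 10 were present and had enough reads to be tested. The cells were asynchronous CGR8 mouse embryonic stem (ES) cells, a line kept without feeder cells on gelatin with LIF. Control cells received 0.5% DMSO for 48 h, and PhenDC3 cells received 10 μM PhenDC3, also in 0.5% DMSO, for 48 h. PhenDC3 is a bisquinolinium compound that binds G-quadruplexes (G4), the stacked folds of guanine-rich DNA. RNA-seq was done on 3 control and 3 PhenDC3 replicates. Replication origins were mapped by SNS-seq, the sequencing of short nascent strands, in 3 control and 2 PhenDC3 replicates.

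Telomeres end in long arrays of the TTAGGG repeat, whose G-rich strand can itself fold into G4. Shelterin coats these repeats: Terf1 (TRF1) and Terf2 (TRF2) bind the double-stranded part, POT1 proteins bind the single-stranded overhang, and the other subunits link them. Telomerase, made of the reverse transcriptase Tert, the RNA template Terc and an H/ACA ribonucleoprotein core that includes dyskerin (Dkc1), adds repeats to the G strand, and CST guides the synthesis of the complementary C strand. ES cells are known for active telomerase.

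After 48 h with PhenDC3, RNA of the catalytic subunit Tert rose 1.58-fold, and RNA of the shelterin genes Terf2 and Pot1b rose 1.39-fold each. No member was called lower at an adjusted p of at most 0.05. Terf1 and Pot1a, the closest relatives of these shelterin genes, did not pass the test and had log2 fold changes of -0.19 and -0.15. For Terf1, all PhenDC3 samples were nevertheless below all controls. Dkc1, Terf2ip, Tinf2 and Acd had log2 fold changes between -0.05 and 0.04. Ctc1 had a 1.38-fold change that narrowly missed the threshold (edgeR adjusted p = 0.0507) and was called in some alternative analyses. Pot1b lost its call when some single replicates were left out.

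Sequences near these genes are shown because PhenDC3 acts on G-rich DNA and because origins lay at the starts of some members. They were read from RefSeq on build GRCm38.p6 (mm10), on the strand of the gene from 5′ to 3′, and runs of at least 3 G or C are in capitals. Promoters run from 250 bases before to 50 after the RefSeq start, and 9 of the 10 members had such an entry, Terf1 being the exception. The first promoters are those of Tert (chr13:73626661-73626960, plus strand), which rose most, and Pot1b (chr17:55712587-55712886, minus strand), which held the longest run of a single base.
Tert promoter: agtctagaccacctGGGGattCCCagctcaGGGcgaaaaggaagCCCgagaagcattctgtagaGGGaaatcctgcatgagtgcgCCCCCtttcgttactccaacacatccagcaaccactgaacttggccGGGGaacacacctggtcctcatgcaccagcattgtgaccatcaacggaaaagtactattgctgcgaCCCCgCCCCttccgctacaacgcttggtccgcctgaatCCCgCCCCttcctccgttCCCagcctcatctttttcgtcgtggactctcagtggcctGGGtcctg
Pot1b promoter: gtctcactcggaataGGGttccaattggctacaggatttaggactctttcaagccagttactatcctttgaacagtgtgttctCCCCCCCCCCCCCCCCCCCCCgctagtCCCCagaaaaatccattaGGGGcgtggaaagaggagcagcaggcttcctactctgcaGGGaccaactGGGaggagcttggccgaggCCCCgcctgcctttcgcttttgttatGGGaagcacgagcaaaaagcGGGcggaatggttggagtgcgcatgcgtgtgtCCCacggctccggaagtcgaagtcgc

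The next sequence is the stretch covered by an SNS-seq peak in all 5 lists at Terf2, 193 bases long (chr8:107096020-107096212, minus strand). It begins in the coding part of exon 1, crosses intron 1, which holds the microRNA gene Mir7075, and ends in exon 2, with 96 exonic bases in all. It held 10 runs of G and 1 run of C on the gene strand.
Terf2 shared origin: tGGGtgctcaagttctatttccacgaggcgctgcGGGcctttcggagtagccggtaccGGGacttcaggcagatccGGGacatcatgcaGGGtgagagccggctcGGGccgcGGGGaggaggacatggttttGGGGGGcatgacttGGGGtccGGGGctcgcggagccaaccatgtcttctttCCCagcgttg

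The last 3 are the 25-base windows with the highest G4Hunter score within 500 bp of a transcription start site (TSS) at Terf2 (chr8:107096394-107096418), Dkc1 (chrX:75095807-75095831) and Ctc1 (chr11:69015822-69015846). G4Hunter scores the richness and the skew of G over C, and a value of 2 or more on either strand was taken as a predicted G4.
Terf2 window: GGGaGGGcGGGGaGGGcGGGGaGGG
Dkc1 window: GGGGttGGGGtGGGGaggagtgagg
Ctc1 window: tctCCCgCCCgCCCCaCCCCacgtg

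The Terf2 window scored 2.64 and lay in the coding part of exon 1, with its centre 139 bases after the TSS and the G on the gene strand. Dkc1 scored 2.48, also with the G on the gene strand, 35 bases before the TSS. Pot1b had the highest score, 3.40 on the other strand, from the unbroken C run of its promoter, centred 169 bases before the TSS. In Ctc1 the best window scored 1.92 on the other strand, 77 bases before a TSS, and therefore stayed under the threshold. Thus 3 of 10 members had a predicted G4 within 500 bp of a TSS, against 54.9% of 13949 tested genes with a curated TSS. Within 1 kb the count was 4, with Tert added by a window of 2.52 at 734 bases before its TSS, against 68.5% of genes. At a threshold of 1.5 it was 8 of 10, against 87.8%.

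A letter pattern was also searched in the RefSeq promoters, namely 4 runs of at least 3 G with loops of 1 to 7 bases. Either strand counted, and G was allowed in a loop. The pattern was found in Ctc1 and in Pot1b, where the single C run fills it, and in 18.6% of 32851 promoters. The Terf2 window printed above lies beyond the end of the promoter searched. The promoters are shorter than the G4Hunter windows, so the shares of the 2 searches cannot be compared. The telomeric repeat TTAGGG, on either strand, was found in Pot1b alone among the members and in 10.6% of all promoters. The E-box CACGTG, which reads the same on both strands, was found in Ctc1 alone and in 7.15% of all promoters, and it overlapped the last C run of the window shown. Members differed in G and C runs, from 4 in Acd to 13 in Tert, beside a median of 10 over all promoters.

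The RNA-seq libraries held 22232014 to 29486502 counts. Levels are given as CPM, the counts of a gene per 1000000 counts of the normalised library size, and log2 fold changes, their standard errors (SE) and adjusted p-values come from edgeR's quasi-likelihood test over 13972 genes with Benjamini-Hochberg adjustment. Of all genes tested, 36.8% were called at an adjusted p of at most 0.05, 18.0% higher and 18.7% lower with PhenDC3. The labels do not say whether replicates were separate cultures, so p-values measure the spread between these samples. In bulk RNA, fewer expressing cells and less RNA per cell cannot be told apart. All 10 ES cell markers were detected, with a summed level of 7623 to 8496 CPM in controls and 8621 to 10040 CPM with PhenDC3. Of these 10, Nanog, Klf4, Dppa5a and Fgf4 (4) were called higher and Pou5f1, Tdgf1 and Utf1 (3) lower, with Utf1 at 232 ± 65.2 CPM in controls and 57.3 ± 7.49 CPM with PhenDC3 (SD, n = 3). Markers of 6 fibroblast genes summed to at most 6.84 CPM in any library, with Thy1 called lower and Dcn at 0 in all. Markers of primitive endoderm summed to 47.4 to 111 CPM in controls and 96.4 to 158 CPM with PhenDC3, with 4 of 6 called higher. Trophectoderm markers summed to 50.4 to 68.5 and 101 to 152 CPM, with 2 of 6 called higher and Cdx2 and Elf5 under 0.5 CPM in all. The 2 called were the keratins Krt8 and Krt18, which made up most of the sum. Eomes was lower, with means of 5.24 CPM in controls and 3.79 CPM with PhenDC3, and Hand1 was higher, with 1.74 and 2.63 CPM. Neither was called. Neural markers summed to 87.1 to 94.3 and 93.0 to 116 CPM, most of it from Tubb3, which was not called. Within this sum Nes was called higher, with means of 14.0 CPM in controls and 33.1 CPM with PhenDC3. Pax6 was called lower, with means of 7.13 and 1.92 CPM. Mesoderm markers summed to at most 2.87 CPM in any library, with none called. The ribosomal RNA precursor Rn45s took 2.55 to 5.70% of counts in controls and 0.172 to 1.43% with PhenDC3, and without it the same number of members, 3, was called. The part of these differences in the changes below was not tested.

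Tert, the reverse transcriptase that limits telomerase activity in many cell types, was measured at 10.8, 11.2 and 13.1 CPM in control replicates 1, 2 and 3 and at 18.9, 19.4 and 17.2 CPM in PhenDC3 replicates 1, 2 and 3. Every PhenDC3 sample was above every control. The log2 fold change was 0.66 (SE 0.14), a 1.58-fold rise with a 95% confidence interval of 1.28 to 1.95 (edgeR adjusted p = 0.00579). It was the largest change of the 10, and Tert passed the test in all 12 alternative analyses, with adjusted p-values between 0.000415 and 0.0322. Tert was counted from 246 to 545 reads per library.

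Dkc1 encodes dyskerin, the pseudouridine synthase of H/ACA ribonucleoproteins, which also binds and stabilises the telomerase RNA. Its levels were 388, 335 and 368 CPM in controls and 366, 318 and 371 CPM with PhenDC3, and the groups overlapped. The log2 fold change was -0.05 (SE 0.11), with a 95% confidence interval of -0.31 to 0.21 (edgeR adjusted p = 0.763). Dkc1 shares 44 exonic bases with Mpp1 on the other strand, and the strand setting of the counting is not given in the sources used here.

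**Figure D1:**
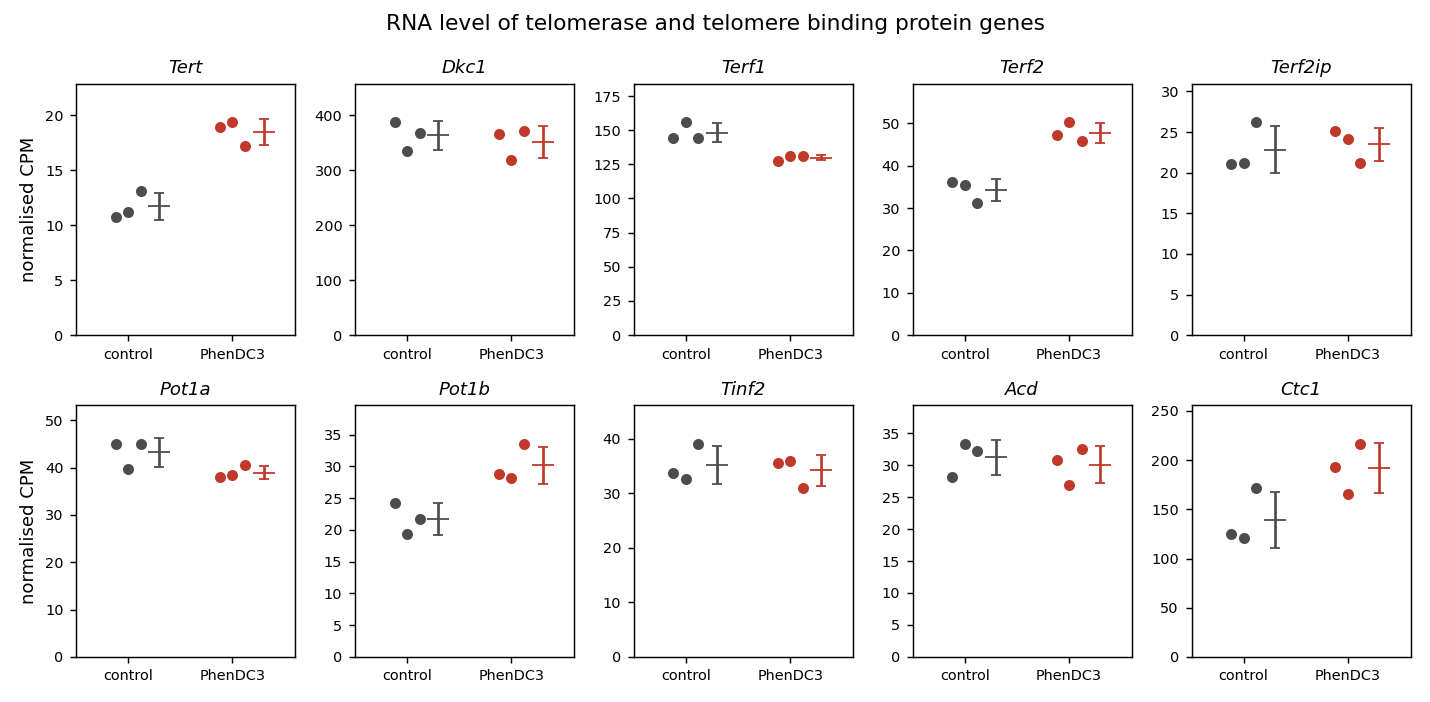
RNA level of each of the 10 genes in normalised CPM (y axis, from 0, a scale of its own for each gene) in control (grey) and PhenDC3 (red) samples. Each point is a sample, and the bar beside the points is the mean with its SD (n = 3). The PhenDC3 points lie above all control points for Tert, Terf2 and Pot1b, below them for Terf1, and overlap them for the other 6.

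Among the shelterin genes that bind double-stranded repeats, the paralogues Terf1 and Terf2 were measured side by side. Terf2, which protects chromosome ends from fusion, had 36.1, 35.5 and 31.3 CPM in controls and 47.2, 50.4 and 45.9 CPM with PhenDC3. No PhenDC3 sample was as low as a control. Its log2 fold change was 0.48 (SE 0.11), a 1.39-fold rise with an interval of 1.17 to 1.66 (edgeR adjusted p = 0.0093). The 12 alternatives gave adjusted p-values from 0.000735 to 0.0415.

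Terf1, a negative regulator of telomere length that also helps replication through telomeric repeats, had 144, 156 and 145 CPM in controls and 128, 131 and 131 CPM with PhenDC3. All PhenDC3 samples were below all controls. The log2 fold change of -0.19 (SE 0.10) did not pass the test (edgeR adjusted p = 0.158), and its 95% interval ran from -0.41 to 0.03. The ratio of the level per length of Terf2 to that of Terf1 within a library was 0.144, 0.131 and 0.125 in control replicates 1, 2 and 3 and reached 0.213, 0.222 and 0.201 in the PhenDC3 replicates, 1.59-fold higher.

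The POT1 proteins cover the single-stranded overhang, and the mouse has a pair of them with partly separate roles, Pot1a in repressing the damage response and Pot1b in limiting the resection of the C strand. Pot1b had 24.2, 19.3 and 21.7 CPM in controls and 28.8, 28.2 and 33.6 CPM with PhenDC3, without overlap. Its log2 fold change was 0.47 (SE 0.13), a 1.39-fold rise with an interval of 1.13 to 1.71 (edgeR adjusted p = 0.0215). This call rested on single libraries, since the adjusted p was 0.0635 without control replicate 2, 0.0589 without PhenDC3 replicate 1 and 0.0857 without PhenDC3 replicate 3.

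Pot1a had 45.0, 39.8 and 45.1 CPM in controls and 38.0, 38.4 and 40.5 CPM with PhenDC3, and the groups overlapped. The log2 fold change was -0.15 (SE 0.11, edgeR adjusted p = 0.294). The ratio of Pot1b to Pot1a per length went from 0.280, 0.252 and 0.251 in controls to 0.395, 0.382 and 0.432 with PhenDC3, 1.54-fold higher. The same ratio for Tert over Dkc1 went from 0.0192, 0.0231 and 0.0246 to 0.0356, 0.0421 and 0.0320, which is 1.64-fold higher. These 3 pairs were chosen after their values were seen and are given without a test. They do not depend on the scaling between libraries.

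The remaining shelterin subunits connect the DNA-binding ones. Terf2ip (RAP1), the partner of TRF2, had 21.1 to 26.2 CPM in controls and 21.2 to 25.2 CPM with PhenDC3, with a log2 fold change of 0.04 (SE 0.14, edgeR adjusted p = 0.839). Tinf2 (TIN2), which holds TRF1, TRF2 and TPP1 together, had 32.6 to 39.0 CPM and 31.0 to 36.0 CPM, with a log2 fold change of -0.04 (SE 0.12, edgeR adjusted p = 0.818). Acd (TPP1), which tethers POT1 and recruits telomerase, had 28.1 to 33.4 CPM and 26.9 to 32.5 CPM, with a log2 fold change of -0.05 (SE 0.13, edgeR adjusted p = 0.76). All 3 overlapped between groups, and the 95% intervals of their log2 fold changes stayed between -0.34 and 0.35. Exons of Acd overlap those of Carmil2 by 41 bases and of Pard6a by 81 bases on the other strand.

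Ctc1 is the large subunit of CST, which brings DNA polymerase alpha and primase to the C strand. Its levels were 125, 120 and 172 CPM in controls and 193, 166 and 217 CPM with PhenDC3. Control replicate 3 was above PhenDC3 replicate 2, and the other samples were separated. The log2 fold change was 0.46 (SE 0.16), or 1.38-fold with an interval of 1.07 to 1.78, and it missed the threshold (edgeR adjusted p = 0.0507). It was called in 6 of 12 alternatives. Among these, the adjusted p was 0.00041 with the replicate number as a block and 0.0339 with DESeq2. It was 0.0449 with limma-voom and 0.0434 with no filter on low counts. Without control replicate 3 it was 0.00736 and without PhenDC3 replicate 2 it was 0.0403. Those that left it uncalled gave 0.0507 without Rn45s, 0.0603 with TMM, 0.169 and 0.134 without control replicates 1 and 2, and 0.13 and 0.167 without PhenDC3 replicates 1 and 3.

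In all, 3 of 10 members were called higher and none lower, beside 18.0% and 18.7% of all genes tested. The median log2 fold change of the members was 0.00, beside 0.01 over all genes. The CPM of the conditions did not overlap for 4 of 10 members, beside 50.6% of all genes. The members called higher were 3 of the 4 with the lowest level per length. The other of these 4, Terf2ip, had a log2 fold change of 0.04. Ctc1, among the more abundant members per length, had 0.46 and was not called.

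**Figure D2:**
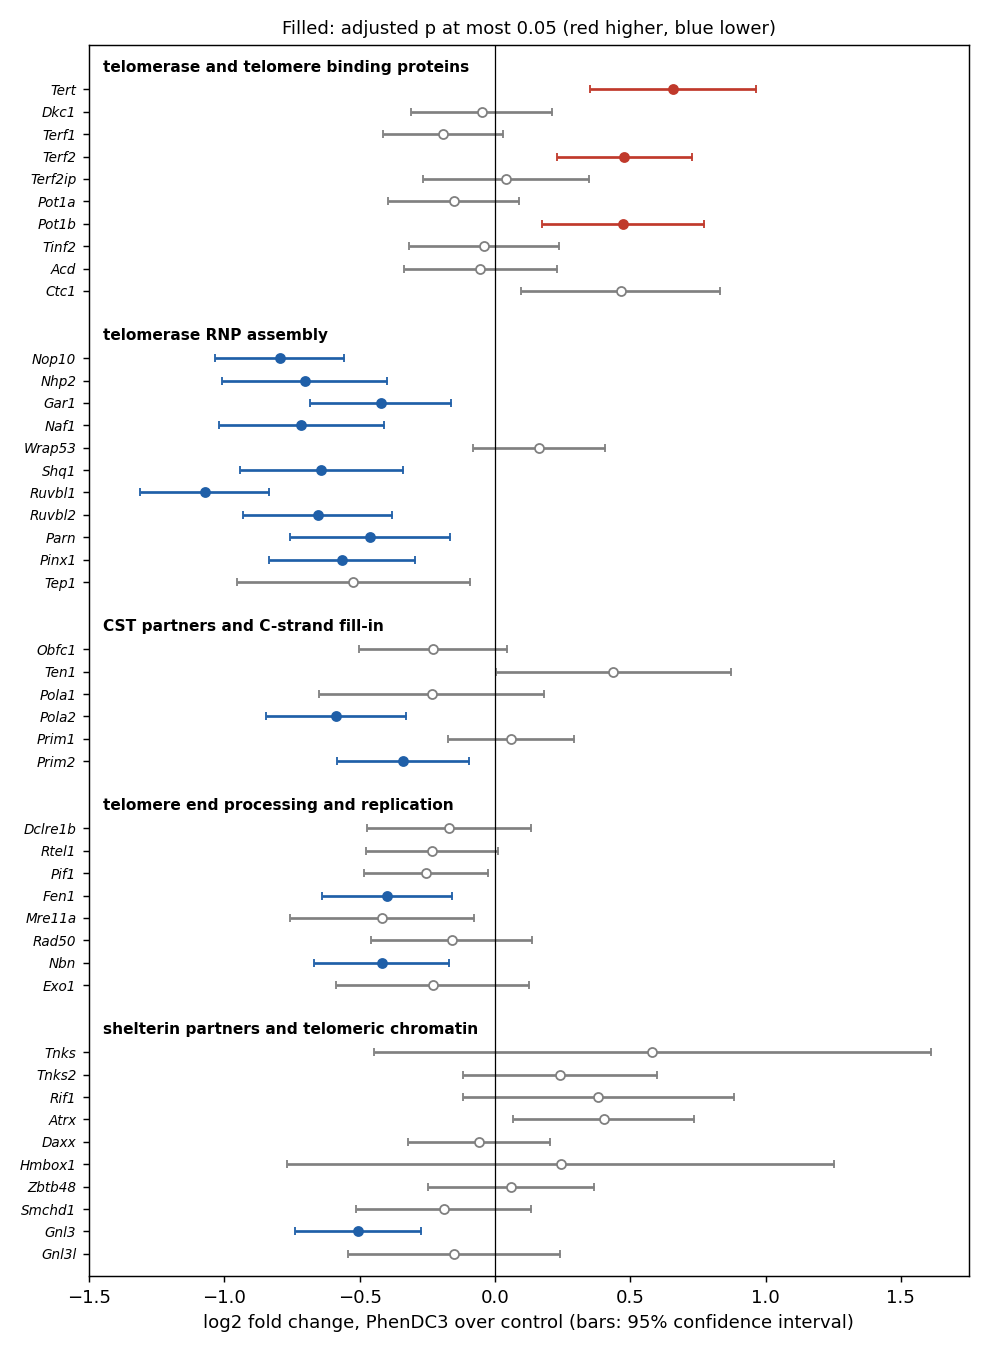
Log2 fold change of PhenDC3 over control (x axis) with its 95% confidence interval for the 10 members (top) and for the tested genes of 4 lists of telomere biology. Filled points have an edgeR adjusted p of at most 0.05, red for higher and blue for lower. Of the members, 3 of 10 are red, and in the assembly list 9 of 11 are blue, with no test of a difference between lists. Of all genes tested, 18.0% were called higher and 18.7% lower. The Zscan4 family, with 6 of 6 called higher, lies beyond the axis and is not drawn.

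To compare members with each other, the CPM were divided by the length of the merged exons. In controls, Dkc1 had 122 ± 8.91 CPM per kb (SD, n = 3), Terf1 65.4 ± 2.97 and Ctc1 33.4 ± 6.78. Below them came Tinf2 with 20.2 ± 1.97, Acd with 18.2 ± 1.61 and Pot1a with 14.7 ± 1.03 CPM per kb. The lowest were Terf2 with 8.70 ± 0.66, Terf2ip with 6.35 ± 0.817, Pot1b with 3.85 ± 0.436 and Tert with 2.71 ± 0.291 CPM per kb. Tinf2 and Acd overlapped between control samples, and the other neighbours in this order did not. The order was the same with PhenDC3, where Terf2ip and Pot1b overlapped as well. Dkc1 stood at percentile 95.5 of the control levels per length of 13949 genes, and Tert at percentile 35.2.

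**Figure D3:**
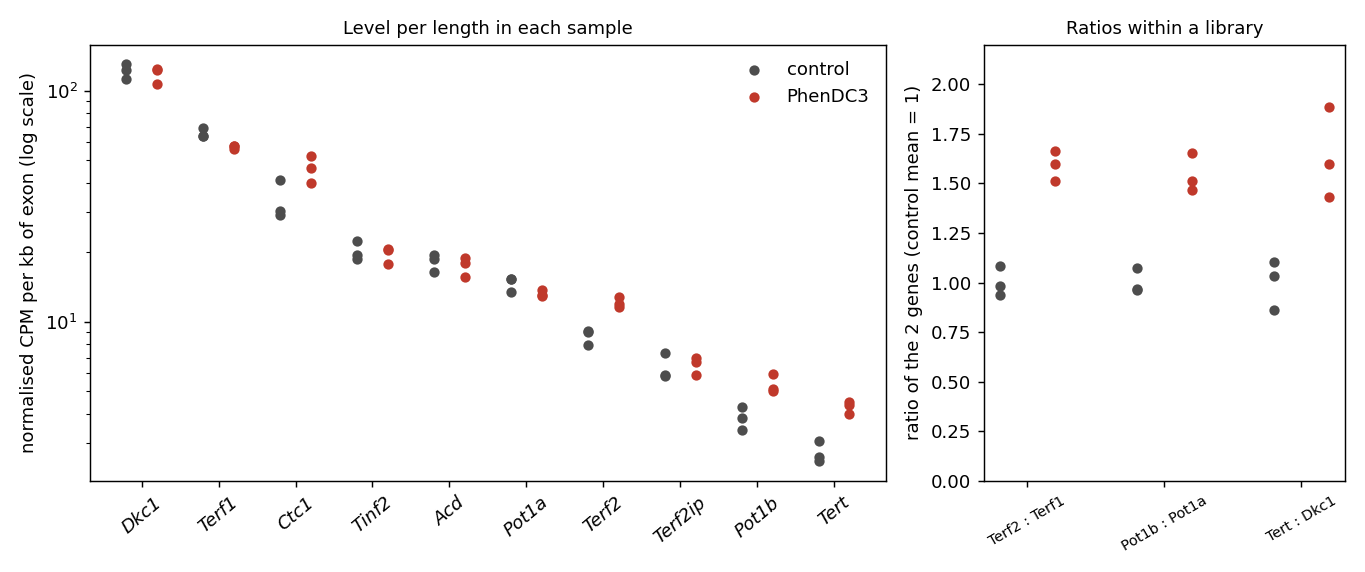
Left, level per length of each member in normalised CPM per kb of exon (log scale) in control (grey) and PhenDC3 (red) samples, ordered by the control mean, from Dkc1 at 122 to Tert at 2.71. Right, the ratio of a pair of genes within each library divided by its control mean, with PhenDC3 points 1.59-fold (Terf2 to Terf1), 1.54-fold (Pot1b to Pot1a) and 1.64-fold (Tert to Dkc1) higher on average.

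The genes for proteins that build or hold the telomerase ribonucleoprotein were listed by function. Of 12 listed, 11 were tested, with a median log2 fold change of -0.64. Of these, 9 were called lower and none higher, beside 18.7% and 18.0% of all genes tested. Ruvbl1, an ATPase that helps assemble the complex, had 185, 182 and 190 CPM in controls and 92.2, 80.9 and 91.9 CPM with PhenDC3, a log2 fold change of -1.07 (SE 0.11, edgeR adjusted p = 0.000176). Its partner Ruvbl2 had a log2 fold change of -0.66 (edgeR adjusted p = 0.00346). Among the core proteins that sit on the RNA with dyskerin, the log2 fold change was -0.80 for Nop10, -0.70 for Nhp2 and -0.42 for Gar1, with edgeR adjusted p-values of 0.000688, 0.00409 and 0.0192. The H/ACA assembly factors Naf1 and Shq1 had -0.72 and -0.64, the RNA-trimming nuclease Parn had -0.46, and the telomerase inhibitor Pinx1 had -0.57, with edgeR adjusted p-values of 0.00373, 0.00587, 0.0228 and 0.00655. Of the 11 tested genes of the list, all but Wrap53 were without overlap between the conditions, beside 50.6% of all genes. Most of the 9 called genes also serve other H/ACA or small nucleolar RNAs, as Dkc1 does.

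Wrap53 (TCAB1), which brings telomerase to Cajal bodies, had a log2 fold change of 0.16 (edgeR adjusted p = 0.262), and Tep1 had -0.52 (edgeR adjusted p = 0.0582). The template RNA Terc was counted from 1 to 11 times per library and was not tested. Terc lacks a poly(A) tail, and the library kit is made for mRNA.

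In the list of CST partners, 2 of 6 were called lower and none higher. In the list for end processing and replication, 2 of 8 were called lower and none higher. Of all genes tested, 18.7% were called lower and 18.0% higher. Pola2 and Prim2, subunits of polymerase alpha and primase, had log2 fold changes of -0.59 and -0.34 (edgeR adjusted p = 0.00446 and 0.0352). Pola1, with the highest mean CPM over the 6 samples of the list, had -0.23 (edgeR adjusted p = 0.345). The direct partners of Ctc1, Stn1 (listed under its older symbol Obfc1) and Ten1, had -0.23 and 0.44 and did not pass the test (edgeR adjusted p = 0.171 and 0.105). Of 8 genes for end processing and replication, Fen1, the flap nuclease, and Nbn, of the MRN complex, fell with -0.40 and -0.42 (edgeR adjusted p = 0.0177 and 0.0168). The helicase Rtel1, with the highest mean CPM of that list, had -0.23 (edgeR adjusted p = 0.122). Of 10 partners of shelterin and of telomeric chromatin, Gnl3, a nucleolar GTPase that binds TRF1, fell with -0.51 (edgeR adjusted p = 0.00538). Rif1, with the highest mean CPM over the 6 samples of that list, had 0.38 (edgeR adjusted p = 0.205), and Tnks2 was more abundant than Rif1 in controls, with a mean of 389 against 376 CPM.

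All 6 genes of the Zscan4 family, which promote telomere lengthening by recombination in a small share of ES cells, rose. Their log2 fold changes were between 2.13 and 3.58, with edgeR adjusted p-values from 0.000168 to 0.00326. Zscan4c had 1.67, 1.51 and 0.865 CPM in controls and 9.85, 5.77 and 7.70 CPM with PhenDC3. These genes are near-identical copies, so the counts of single copies are uncertain. Of the meiotic telomere adaptor, only Terb1 (listed as Ccdc79) was in the table, with at most 8 counts per library, and it was not tested. Over all lists, 41 genes were tested, of which 6 rose, all Zscan4, and 14 fell, beside 18.0% and 18.7% of all genes tested.

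The genes with the profile most like that of Tert over the 6 samples were Ralgds, Ticrr and Padi2, with Pearson's r of 0.996, 0.996 and 0.995 on log2 CPM among 12480 genes with a mean of at least 1 CPM. The 6 samples form 2 groups of 3, and r includes the difference between them. On the deviations from the group means, the closest were Larp7, Kif22 and Mettl2, with r of 0.996, 0.996 and 0.992. The likeness is a description over few samples, and no p is given.

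Origins at the members were read from the SNS-seq peak lists, in which each peak has a fold enrichment over an RNase-treated library. A peak within 2 kb of a TSS was found for 6, 5 and 2 of 10 members in control replicates 1, 2 and 3 and for 3 and 2 of 10 in PhenDC3 replicates 1 and 2. Over 13949 genes the shares were 67.2, 64.6 and 39.2% in the controls and 64.3 and 46.0% with PhenDC3. Control replicate 3 had the lowest share. The mean number of members with a peak was 1.83 lower with PhenDC3 on these values, and the difference was -3.0 without control replicate 3, -1.0 without control replicate 1 and -0.333 with a window of 5 kb. No test is given, since 3 lists against 2 cannot reach a two-sided exact p below 0.2.

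Terf2 was the only member with a promoter origin in all 5 lists, a pattern of 25.9% of genes. The fold enrichment of the peak that contains the shared stretch shown above came to 4.88, 3.93 and 4.12 in control replicates 1, 2 and 3 and to 4.31 and 4.18 in PhenDC3 replicates 1 and 2. The PhenDC3 values lay within the range of the controls. The centre of the Terf2 G4 window was 220 to 271 bases upstream of the summits of these peaks.

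At Tert, controls had a peak just before the TSS with fold enrichments of 5.93, 5.28 and 6.39 and summits 75, 76 and 76 bases before the TSS. PhenDC3 replicate 2 had a peak there of 3.35 with its summit 72 bases before the TSS, and PhenDC3 replicate 1 had none within 2 kb. The 110 bases common to the 4 peaks (chr13:73626769-73626878) lie within the promoter printed above. RNA of Tert rose with PhenDC3, as given above, and whether the peak and the RNA are related was not tested. Each condition has an RNase-treated library of its own, so fold enrichments of the conditions may be relative to different libraries. They were not tested against each other.

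Terf1 had a promoter peak in control replicates 1 and 2 and in neither PhenDC3 list, with a fold enrichment of up to 12.7 in control replicate 1. A peak in at least 2 controls, of any number, and in neither PhenDC3 list was found for 8.27% of genes. Terf2ip and Acd had peaks in control replicates 1 and 2 and in PhenDC3 replicate 1, and Tinf2 in control replicate 1 alone. At Terf2ip the PhenDC3 peak had its summit 1916 bases after the TSS, where control replicate 1 also had a peak, with its summit at 1908 bases. The peak 189 to 197 bases before the TSS in control replicates 1 and 2 was in neither PhenDC3 list. Pot1a, Pot1b, Dkc1 and Ctc1 had no promoter peak in any list, as did 17.7% of genes, and no member had peaks in both PhenDC3 lists and in no control, as 2.03% of genes did.

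Origins inside the genes were counted over the whole gene. Terf2 held 7, 6 and 6 peaks in its 27.1 kb in controls and 8 and 5 with PhenDC3, and Tert held 6, 4 and 3 in its 22.9 kb in controls and 5 and 4 with PhenDC3. Pot1b, with 61.5 kb, held 2, 2 and 3 in controls and 3 and 3 with PhenDC3, and Ctc1 held 1, 1 and 1 and then 2 and 1. Terf1 held 2, 1 and 0 in controls and none with PhenDC3, Pot1a held 2, 0 and 1 and then none, and Tinf2 held 1, 0 and 0 and then none. Acd held 2, 1 and 0 in controls and 1 and 0 with PhenDC3, and Terf2ip held 6, 0 and 0 and then 2 and 1. These counts overlapped or touched between the conditions in all 10 members. Dkc1, the most abundant member per length, held no peak in any list over its 13.9 kb.

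**Figure D4:**
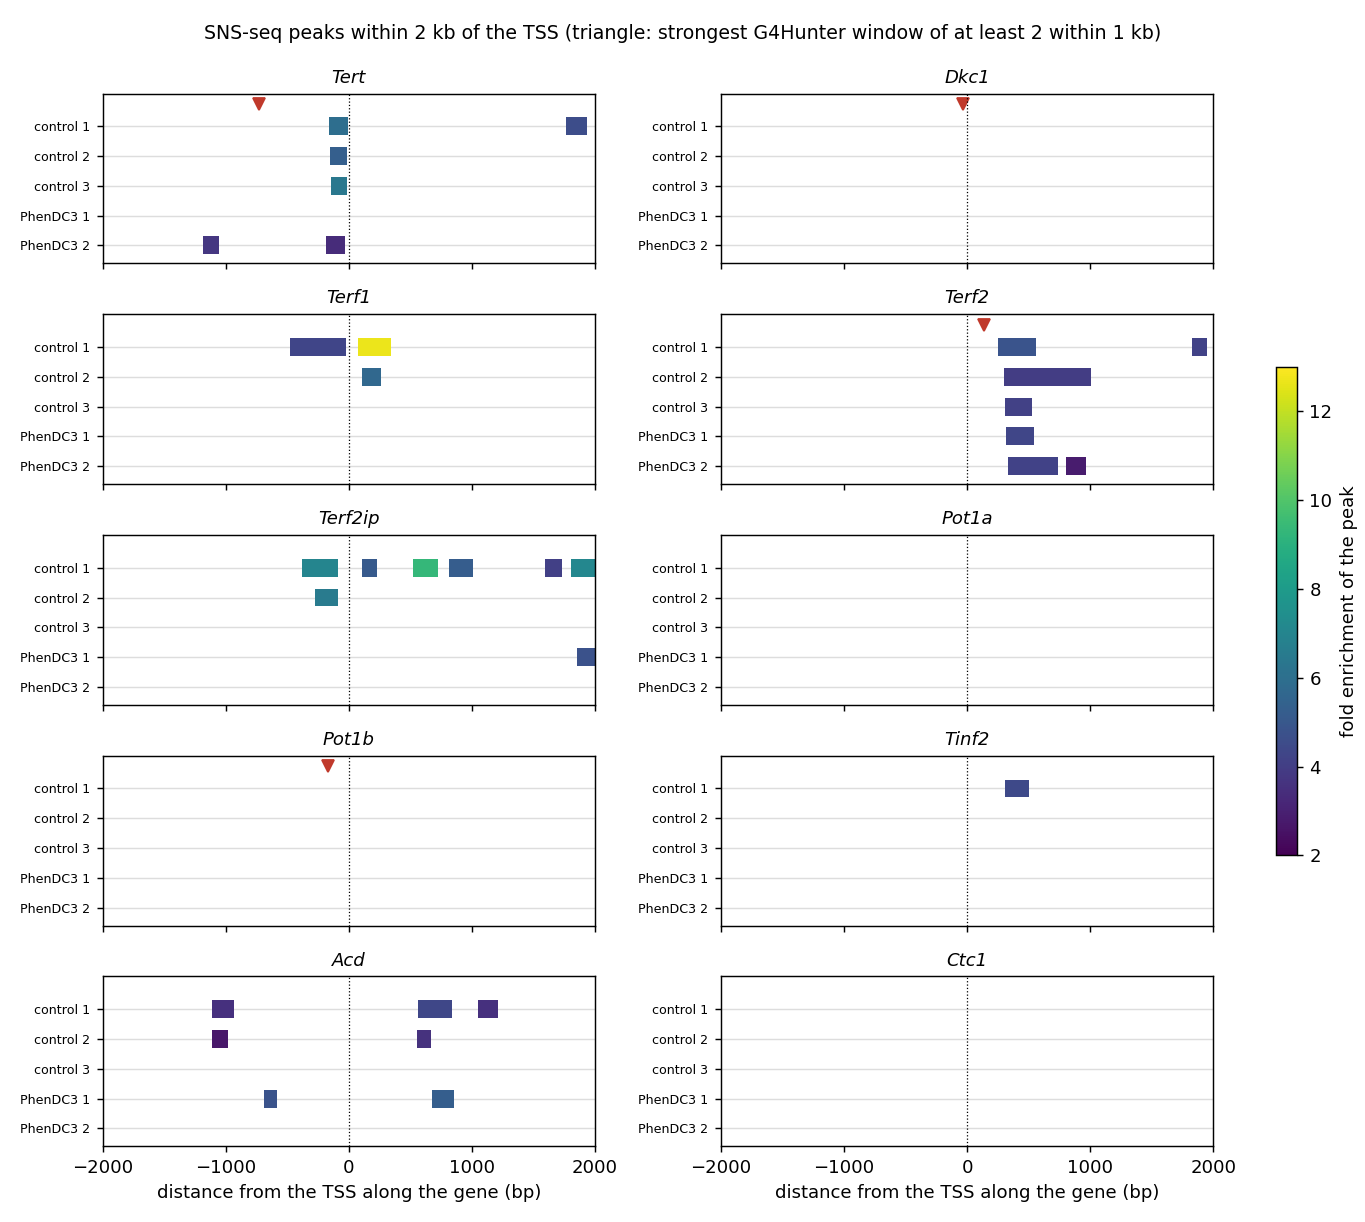
SNS-seq peaks within 2 kb of the TSS of each member (x axis, bases along the gene, dotted line at the TSS), with a row for each of the 3 control and 2 PhenDC3 lists and the colour giving the fold enrichment. Triangles mark the strongest predicted G4 (G4Hunter score of at least 2) within 1 kb. Terf2 has a peak after its TSS in all 5 rows, Tert has one before its TSS in 4 rows, and 4 genes have none.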

How the data were processed

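RNA was extracted from 3 control and 3 PhenDC3 samples and sequenced from a stranded mRNA kit. The authors mapped reads with TopHat 2.1.1 and Bowtie2 2.2.9 and deposited raw counts per gene from HTSeq-count 0.6.1p1. The annotation and strand setting are not given in the sources used here. For SNS-seq, the authors called narrow peaks on mm10 with MACS2 2.1.0 in each replicate and kept those in a SICER region. The deposited peak lists give a fold enrichment (a ratio to an RNase-treated library) and the −log10 of a p-value, used only in an alternative with the stronger peaks. Read counts are not part of these lists, and the depth of SNS-seq is unknown. The tables of the authors' own fold changes and p-values (DESeq2) and of normalized pseudo-counts were not used.

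Counts were tested with edgeR 4.0.16 (R 4.3.3): RLE normalization, filterByExpr, robust quasi-likelihood fit, Benjamini-Hochberg adjustment over 13972 genes and a threshold of 0.05. Intervals are at 95%. The procedure was tested on simulated data. Alternatives were TMM, DESeq2 1.42.0, limma-voom (limma 3.58.1), no filter, a replicate block, each replicate left out and, chosen after seeing the data, the table without Rn45s. Gene positions, exon lengths, TSS and sequences came from RefSeq GRCm38.p6, and G4Hunter used windows of 25 bases. A peak was placed at a gene when it overlapped the 2 kb on each side of a curated TSS. All members were named. Of the other lists, every gene called was named, with the gene of highest mean CPM of a list where it was not called, and Zscan4c was given as an example. Some genes with no call were added after their values were seen. Members and lists were chosen with earlier results of these data known. The files hold 0 columns of samples outside the series.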

Additional observations from a re-analysis of the deposited data

How the results depend on the processing

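Tert and Terf2 kept their direction and call in all 12 alternatives of the RNA-seq test, and Terf1 and Pot1a stayed negative and uncalled. Ctc1 missed the threshold in the reported test and passed it with DESeq2 (log2 fold change 0.46), limma-voom (0.47), no filter (0.46) and the replicate block (0.47), and its values with a replicate left out were 0.37 to 0.64, with adjusted p-values from 0.00736 to 0.169. Pot1b ranged from 0.39 to 0.55 with a replicate left out and lost its call in 3 of these 6. Values close to 0 changed sign when a replicate was left out, for Terf2ip (-0.0214 to 0.144), Tinf2 (-0.0969 to 0.0348), Acd (-0.131 to 0.022) and Dkc1 (-0.11 to 0.0208). Leaving out a replicate gave 2 to 4 members called, 15 to 22 genes of the pathway lists and 3332 to 5416 of all genes, the lowest without PhenDC3 replicate 1, and SNS-seq differences of -3.0 to -1.0. At a G4Hunter threshold of 1.5, 8 members had a predicted G4.

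Samples with the same replicate number correlated, in their deviations from the group means, with r of 0.098, 0.627 and 0.486 for numbers 1, 2 and 3. Each sample correlated best with its own number. The labels of the count columns also number the control and PhenDC3 samples of a replicate consecutively, but they do not state that these are pairs. Number 1 had the weakest r, 0.098, and the numbers were not taken as pairs in the reported test. These correlations alone do not decide whether they are pairs. With the replicate number as a block, 7489 genes were called instead of 5135, 4 members instead of 3, and 30 genes of the pathway lists instead of 20. The member added was Ctc1 (edgeR adjusted p = 0.00041). Counts of members with a peak depend on the depth of each SNS-seq list, which is unknown.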
